A study of Mus musculus with 24 samples.

Results

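The comparison described here is that of wild-type (WT) mouse sciatic nerve at postnatal day 28 (P28) with WT nerve at postnatal day 5 (P5). It rests on 4 of the 24 Affymetrix arrays of the series, chosen by their titles: 2 arrays at P5 and 2 at P28, which the labels call biological replicates. The series crosses 4 genotypes with 3 ages, P5, P28 and 4 months, with 2 arrays in each group; beside WT these are S63del mice, Chop null mice and mice with both changes. WT mice carry neither S63del, a mutation that models Charcot-Marie-Tooth disease type 1B, nor the deletion of Chop (Ddit3), a transcription factor of the response to misfolded protein in the endoplasmic reticulum (ER). The labels do not say how many mice went into an array, so the p-values measure a spread between replicate arrays. That spread was estimated over all 24 arrays and not from the 4 compared ones alone. They do say that the perineurial sheath was stripped before the nerve was frozen, so each array mixes Schwann cells, axons, fibroblasts, vessels and blood or immune cells.

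Myelin in peripheral nerve is made by Schwann cells, each of which wraps 1 stretch of 1 axon. Immature Schwann cells divide, stop, pair with an axon and then switch on a programme led by the transcription factors Sox10, Pou3f1 (Oct6) and Egr2 (Krox20), which drives the genes of myelin proteins and lipids. Myelination has begun by the first week after birth and is near its peak at about 4 weeks, and over the same weeks the nerve grows in length and its collagen matrix matures. The comparison asks which transcripts differ between these ages in the normal nerve.

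Values are log2 levels as deposited, for 12393 genes, each read from its brightest probe set. A level is comparable between arrays for 1 gene, not between genes. Differences are P28 minus P5 on the log2 scale ± SE, from 2 arrays against 2 with a spread estimated over all 24 arrays, and a gene was called at an adjusted p under 0.05 (limma, Benjamini-Hochberg over all genes). "Rose" and "fell" below refer to called genes. Many named genes were chosen for large differences or small p, so a lack of overlap between ages follows in part from that choice. With 2 arrays against 2 it also arises often without a difference, and its share over all genes is not given here.

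All 8 arrays of P28, in every genotype, stood apart from the 16 arrays of the other ages in the dap control, and from those of P5 in other measures of the arrays themselves. The dap control, a bacterial RNA added to each sample, read 3.10 to 3.77 at P28, against 8.14 to 8.41 at P5 and 8.12 to 8.41 at 4 months. The interquartile range of an array's values was 2.90 to 3.52 at P28 and 3.77 to 3.83 at P5, and the array medians were 6.84 to 6.87 and 6.98 to 7.01. The actin control probe set from the 3′ end of the transcript read 0.59 to 1.12 above that from the 5′ end at P28 and 0.33 to 0.44 above it at P5, and the same difference for Gapdh was -0.05 to 0.39 at P28 and -0.22 to -0.17 at P5, without overlap in either. Handling of the P28 arrays and age therefore cannot be told apart in any value at P28. The 18S ribosomal RNA control was 7.32 and 7.85 on the WT P5 arrays and 9.65 and 9.43 on the WT P28 arrays. This control split by genotype at P28. It was 9.67 and 10.57 in Chop null nerve, 6.19 and 6.71 in S63del nerve, and 6.02 and 5.92 in nerve with both changes. All 8 arrays of P5 read 7.32 to 8.66. The labelled tissue showed its defining glial markers on all 4 arrays: Pmp22 was at 14.19 and 14.19 at P5 and 14.28 and 14.28 at P28, Sox10 at 10.73, 10.78, 11.33 and 11.33, S100b at 11.10, 10.91, 12.02 and 12.13, and Erbb3 at 11.22, 11.31, 9.65 and 10.01.

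**Figure D1:**
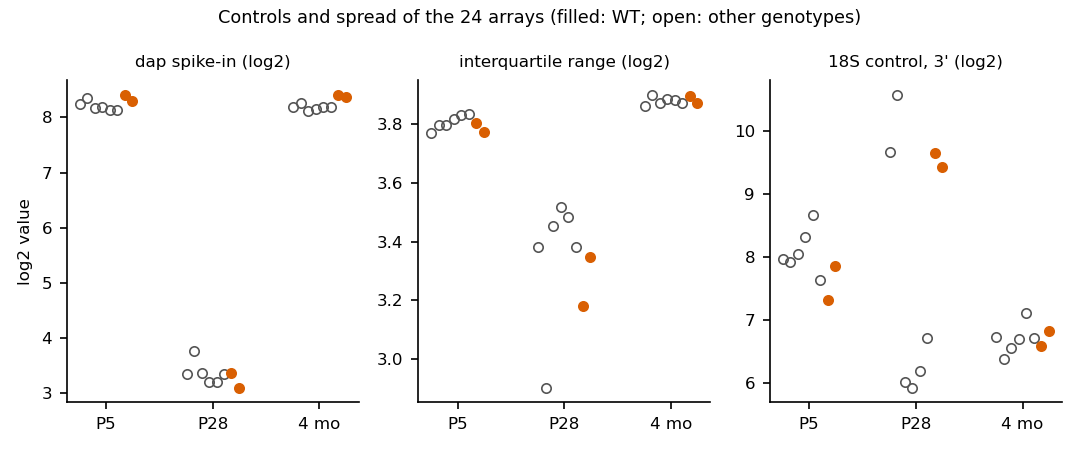
Log2 value of the dap spike-in, interquartile range of the log2 values and log2 value of the 18S control (vertical axes) on the 24 arrays by age, with the WT arrays filled and the other genotypes open. The 8 arrays of P28 lie at 3.10 to 3.77 for dap, and no array of another age is below 8.12.

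Between P5 and P28, 7378 of the 12393 genes were called (59.5%), 3877 of them higher (31.3%) and 3501 lower (28.2%). Since most genes were called, a rule of size is given as well: 1013 genes were called and more than 2-fold higher (8.17%), and 1032 were called and more than 2-fold lower (8.33%). The median over all genes was 0.08. The direction depended on the level of the gene. Among the 2066 genes with the lowest levels 867 were higher and 68 lower, and among the 2066 with the highest levels 394 were higher and 888 lower. After the arrays were brought to 1 common distribution by quantile normalization these counts were 236 and 205 in the dim group and 520 and 691 in the bright group. Dim genes thus read higher and bright genes lower on the P28 arrays, whose values had a narrower range; the accounts below lead with larger differences.

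**Figure D2:**
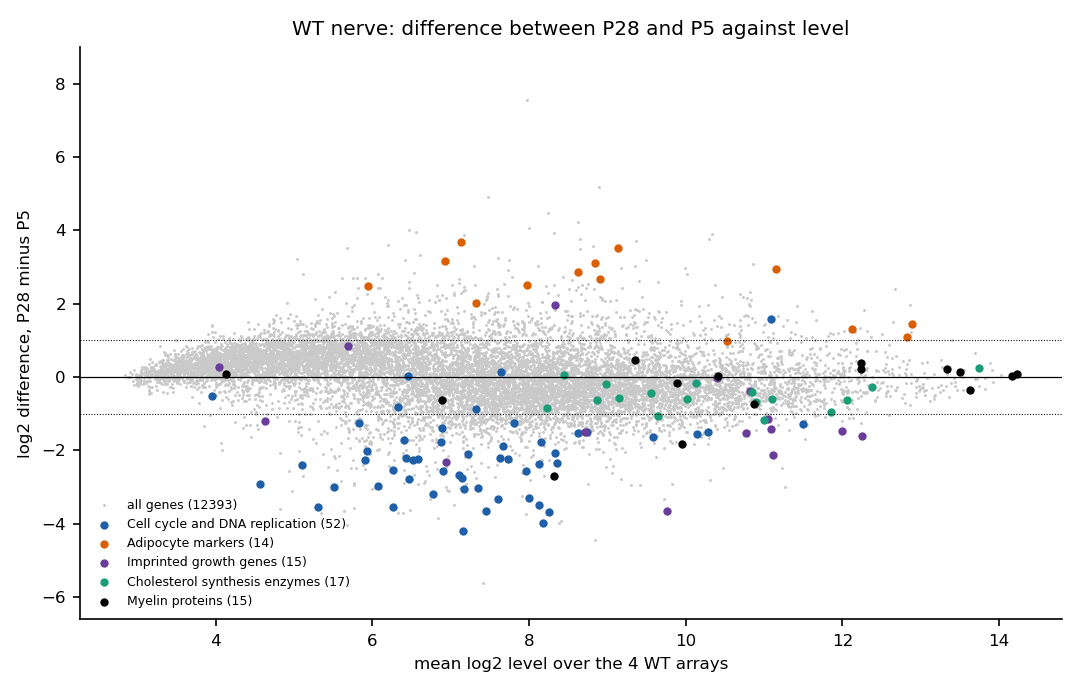
Log2 difference between P28 and P5 in WT nerve (vertical axis) against the mean log2 level over the 4 WT arrays (horizontal axis) for 12393 genes, with 5 gene lists coloured and dotted lines at a 2-fold difference. Most cell cycle genes lie below the 2-fold line and most adipocyte markers above it, while the brightest myelin protein genes sit at 0.

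The largest coherent fall was that of the genes of cell division. Of 52 measured cell cycle and DNA replication genes 49 fell and 46 fell more than 2-fold, with a median of -2.25 against 0.08 for all genes. Mki67, the proliferation antigen Ki-67, was at 10.21 and 10.11 at P5 and at 6.08 and 6.29 at P28, a fall of 15.7-fold (-3.98 ± 0.29, adjusted p = 1.89e-08). Rrm2, the ribonucleotide reductase subunit that makes deoxynucleotides for DNA synthesis, went from 9.22 and 9.31 to 4.97 and 5.14 (-4.21 ± 0.21, adjusted p = 3.33e-10). In both genes the replicates of an age lay close together and the ages were far apart.

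Members of both DNA replication and mitosis fell. Cdc20, which activates the anaphase-promoting complex, was at 10.04 and 10.15 at P5 and at 6.46 and 6.38 at P28 (-3.67 ± 0.18). Rfc4, a clamp loader subunit of DNA replication, fell by 3.19 ± 0.17, and Cenpe, a kinetochore motor, by 2.91 ± 0.17. Birc5 (survivin), a member of the chromosomal passenger complex, was at 9.33 and 9.22 and then at 5.24 and 6.01 (-3.65 ± 0.23). Top2a, the topoisomerase that untangles chromosomes, fell by 3.31 ± 0.29, although a second, dimmer probe set of it read 0.62 higher. Outside the list, Pclaf, a partner of the replication clamp, Cep55, which completes the separation of daughter cells, and Dbf4, the activator of the Cdc7 kinase, read -3.93, -3.70 and -3.70 in their brighter probe sets and -0.21, -1.82 and 0.06 in their other ones. Against the direction of the list, Fen1, a flap endonuclease, was at 10.31 and 10.29 at P5 and at 11.95 and 11.80 at P28 (1.57 ± 0.15); its 2 probe sets disagreed, the other reading -2.58. Ccne1 and Mcm3 were the members not called, at 0.03 and 0.12. In whole nerve a smaller number of dividing cells and less transcript per cell cannot be told apart, here and in all later counts.

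The promoters of these genes are shown because the list moved together and its members are known for 2 short elements: CCAAT, the box bound by NF-Y, and TTTGAA or TTCGAA, the core of the cell cycle genes homology region. The 250 bases before the annotated start (RefSeq, mouse build GRCm38.p6) were searched on both strands, counting overlapping matches separately. They are printed 5′ to 3′ in the direction of the gene, with the matches in capitals (a match on the opposite strand reads ATTGG or TTCAAA), for Rrm2, Cdc20, Mki67 and Top2a. The promoter of Hmgcs1, a cholesterol gene taken up below that was not called, follows with only TCACNCCAC, the sterol regulatory element, in capitals. CCAAT was not marked in that promoter, although ATTGG occurs among its letters.
Rrm2, chr12:24708004-24708253, plus strand: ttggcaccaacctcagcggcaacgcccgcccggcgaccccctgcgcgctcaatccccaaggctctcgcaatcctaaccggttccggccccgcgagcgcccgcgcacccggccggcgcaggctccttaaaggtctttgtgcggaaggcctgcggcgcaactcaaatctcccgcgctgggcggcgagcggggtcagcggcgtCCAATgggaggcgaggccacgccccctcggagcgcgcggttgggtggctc
Cdc20, chr4:118437344-118437593, minus strand: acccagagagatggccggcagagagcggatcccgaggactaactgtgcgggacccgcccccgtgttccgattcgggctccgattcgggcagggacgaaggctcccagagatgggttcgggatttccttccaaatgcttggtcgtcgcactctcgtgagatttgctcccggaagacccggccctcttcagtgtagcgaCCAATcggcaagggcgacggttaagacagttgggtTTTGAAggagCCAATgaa
Mki67, chr7:135716380-135716629, minus strand: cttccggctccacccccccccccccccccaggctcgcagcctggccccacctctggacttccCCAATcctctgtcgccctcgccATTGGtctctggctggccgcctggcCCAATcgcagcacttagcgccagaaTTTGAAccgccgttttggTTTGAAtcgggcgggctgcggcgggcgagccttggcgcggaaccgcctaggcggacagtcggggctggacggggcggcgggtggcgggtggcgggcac
Top2a, chr11:99024190-99024439, minus strand: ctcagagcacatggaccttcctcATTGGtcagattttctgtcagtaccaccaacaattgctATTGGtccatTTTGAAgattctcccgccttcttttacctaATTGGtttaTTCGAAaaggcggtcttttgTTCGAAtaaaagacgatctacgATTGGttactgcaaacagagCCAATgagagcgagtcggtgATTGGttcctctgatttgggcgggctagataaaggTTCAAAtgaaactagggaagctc
Hmgcs1, chr13:119690101-119690350, plus strand: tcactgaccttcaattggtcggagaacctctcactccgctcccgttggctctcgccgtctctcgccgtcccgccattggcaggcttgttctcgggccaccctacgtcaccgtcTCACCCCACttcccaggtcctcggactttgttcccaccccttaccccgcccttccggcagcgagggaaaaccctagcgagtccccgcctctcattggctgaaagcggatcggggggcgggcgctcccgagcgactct
Of these, Rrm2 held 1 CCAAT and neither form of the other element, Cdc20 held 2 and 1, Mki67 3 and 2, and Top2a 6 and 4. Of the 49 cell cycle genes that fell, 41 had an entry, with 46 promoters in all. CCAAT was in 34 of the 46 (73.9%), against 34.7% of the 12566 promoters of measured genes, and CCAAT together with TTTGAA or TTCGAA was in 14 (30.4%), against 4.61%. These are matches of letters in a window and were not tested as sites.

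The inhibitors that hold cyclin-dependent kinases in check were not called higher: of 7 measured, 3 fell (limma). Their median was -0.04, and it ran from -0.60 to 0.06 over the alternatives. The share called was 42.9%, against 59.5% of all genes. Cdkn1c (p57), an imprinted inhibitor, was at 11.66 and 11.77 at P5 and at 8.83 and 8.98 at P28 (-2.81 ± 0.19, adjusted p = 7.07e-09). Cdkn2b and Cdkn2d fell by 0.61 ± 0.20 and 0.60 ± 0.17; the first call was lost without the first P5 or the first P28 array, and the second after quantile normalization. Cdkn1b (p27) stood at 9.73 and 9.76 and at 9.82 and 10.07, with no overlap between ages but not past the threshold (0.20 ± 0.20, adjusted p = 0.4).

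Of 12 myelination transcription factors 6 fell and 2 rose (66.7% called, against 59.5% of all genes), with a median of -0.45. Pou3f1 (Oct6), the factor of promyelinating cells, was at 10.82 and 10.95 at P5 and at 7.76 and 8.13 at P28, a fall of 7.66-fold (-2.94 ± 0.35, adjusted p = 3.73e-06). Egr2, which drives myelin genes, was at 11.56 and 11.55 and then at 10.54 and 10.74 (-0.92 ± 0.18, adjusted p = 0.000323). Sox10, required throughout the lineage, went the other way, to 11.33 and 11.33 from 10.73 and 10.78 (0.57 ± 0.17, adjusted p = 0.00767). None of these 3 genes had overlapping ages. Zeb2, a repressor of inhibitory factors, fell by 1.63 ± 0.21. Yap1, a co-activator of the Hippo pathway, rose by 0.70 ± 0.09 in its brighter probe set while its dimmer one read -0.43, and the mean of the 2 was 0.13 and not past the threshold. The falls of Yy1 and Tead1, at -0.95 and -0.65, and of Pou3f2 (Brn2), at -0.52, complete the 6.

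Genes of immature and dividing Schwann cells fell, with exceptions. Of 19 measured, 11 fell, 8 of them more than 2-fold, and 3 rose (73.7% called, against 59.5% of all genes). The median was -0.48. Sox2, which holds Schwann cells in the immature state, was at 8.75 and 8.83 at P5 and at 5.02 and 5.58 at P28, a fall of 11.2-fold (-3.49 ± 0.38, adjusted p = 1.36e-06). Id2, an inhibitor of basic helix-loop-helix factors, was at 11.27 and 11.29 and then at 8.16 and 8.58 (-2.91 ± 0.24). Tnc, a matrix protein of growing nerve, was at 9.03 and 8.82 and then at 5.71 and 6.69 (-2.72 ± 0.24). None of the 3 had overlapping ages. Sox4 fell by 2.47 ± 0.25 and Gap43, the growth-associated protein, by 1.99 ± 0.19. Ngfr, the p75 neurotrophin receptor, fell by 1.14 ± 0.20, and Jun, an antagonist of myelination, by 0.89 ± 0.20. Ncam1 fell by 0.34 ± 0.12, a call that was lost under 6 of the alternatives, and its 6 probe sets ran from -1.88 to 0.85. The 3 that rose were Nes (nestin), at 9.67 and 9.65 and then at 10.96 and 10.71, Gfap, at 5.28 and 5.40 and then at 6.45 and 6.39, and Pax3, at 4.81 and 5.03 and then at 5.76 and 5.54; they were named after their values were seen.

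Of 17 measured signals and receptors of the Schwann cell 6 rose and 6 fell (70.6% called, against 59.5% of all genes). Their median was 0.34 and turned negative under 1 alternative. Ednrb, the endothelin receptor that slows Schwann cell maturation, was at 10.16 and 10.26 at P5 and at 7.61 and 6.98 at P28, a fall of 7.56-fold (-2.92 ± 0.21, adjusted p = 1.92e-08). Erbb3, which binds axonal neuregulin, was at 11.22 and 11.31 and then at 9.65 and 10.01 (-1.43 ± 0.17, adjusted p = 2.78e-06), and its partner Erbb2 fell by 0.52 ± 0.15. Lpar1, Igf1r and Dhh fell by 0.50, 0.57 and 0.36. The FGF receptor Fgfr1 rose by 0.92 ± 0.17, to 9.15 and 9.59 from 8.43 and 8.47. Bdnf rose by 0.86 ± 0.19 from a low level, 4.97 and 5.00, in 1 of its 2 probe sets, while the other read -0.14.

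**Figure D3:**
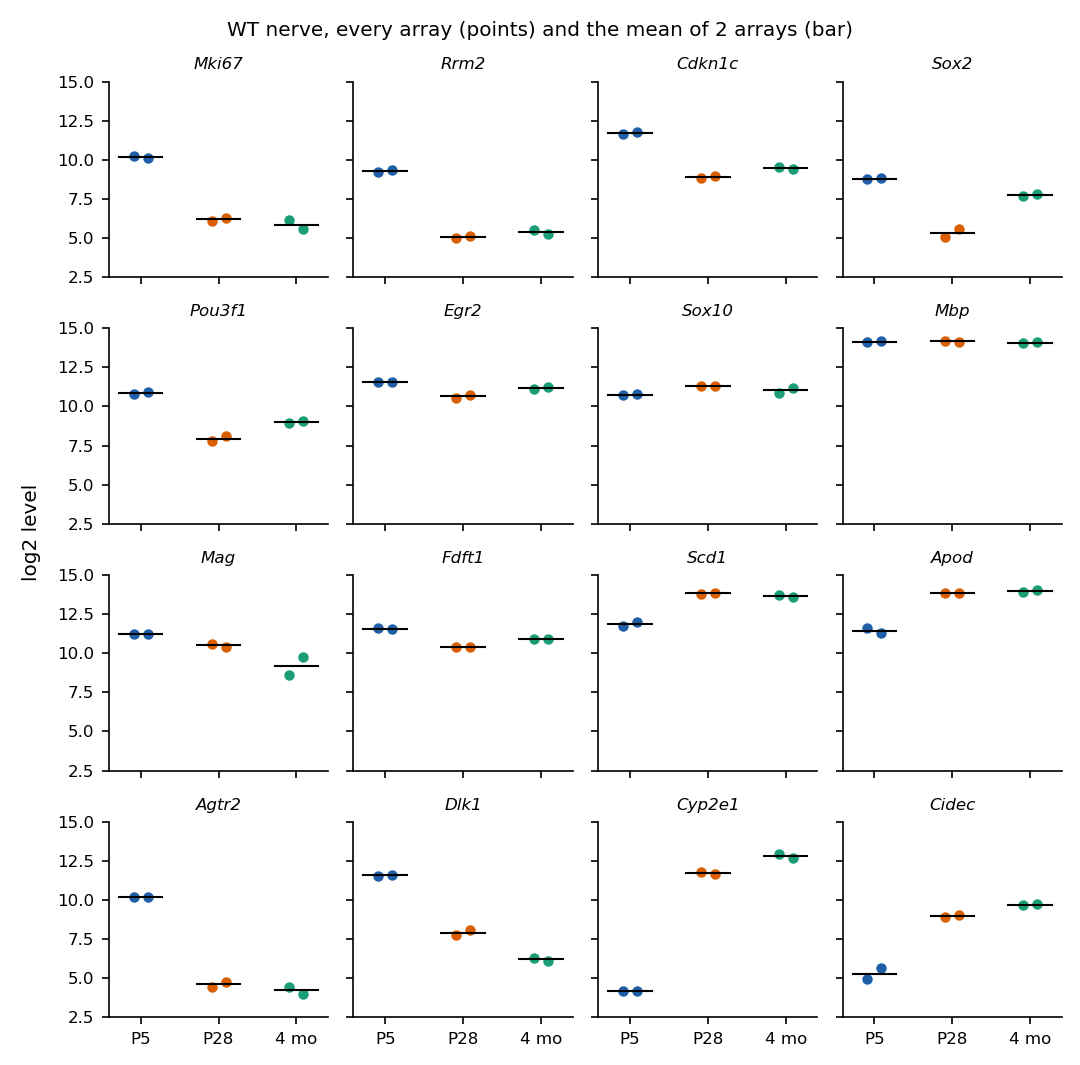
Log2 level (vertical axis) of 16 genes on each WT array at P5, P28 and 4 months, with a bar at the mean of 2 arrays. Mki67, Rrm2 and Agtr2 fall by P28 and lie near that level at 4 months, Sox2 and Pou3f1 lie between their P5 and P28 levels at 4 months, and Mbp stays between 14.06 and 14.19 at all 3 ages.

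The genes of the main myelin proteins were already at the top of the scale at P5. Mbp, myelin basic protein, was at 14.14 and 14.17 at P5 and at 14.19 and 14.14 at P28 (0.02 ± 0.09, adjusted p = 0.892), and the 2 ages overlapped. Pmp22, the peripheral myelin protein whose duplication causes Charcot-Marie-Tooth disease type 1A, differed by 0.09 ± 0.09 (adjusted p = 0.386). Mal, a raft protein of compact myelin, differed by 0.22 ± 0.10 (adjusted p = 0.0711). These values do not show that the transcripts were equal: they come from the brightest probe set of each gene, and the 8 probe sets of Mbp ran from -2.55 to 0.20.

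Of 15 measured myelin protein genes 1 rose, 5 fell and 9 were not called, with a median of 0.02. Of all genes 59.5% were called, 31.3% higher and 28.2% lower, so these 15 were called less often than genes at large. Their median ran from -0.02 to 0.12 over the alternatives, and its sign changed with the processing. Ncmap, a compact myelin protein, rose by 0.37 ± 0.13 (adjusted p = 0.0231). Gjc3, a connexin of Schwann cells, was at 9.46 and 9.86 at P5 and at 7.30 and 6.64 at P28 (-2.69 ± 0.31, adjusted p = 2.81e-06). Mpp6 (Pals2), a scaffold of the adaxonal membrane, was at 10.91 and 10.81 and then at 9.05 and 9.03 (-1.82 ± 0.17). Both P28 arrays lay well below both P5 arrays in each. Mag, the adhesion molecule that faces the axon, was at 11.26 and 11.23 and then at 10.61 and 10.42 (-0.73 ± 0.23, adjusted p = 0.0124), a call lost under 4 alternatives. Cnp, an enzyme of non-compact myelin, fell by 0.34 ± 0.10, a call lost under 3, and Tspan2 fell by 0.62 ± 0.20. Cldn19, the claudin of Schwann cell tight junctions, was at 9.93 and 10.02 and at 9.80 and 9.82 (-0.17 ± 0.19, adjusted p = 0.468), and Gjb1, the connexin 32 gene, differed by 0.46 ± 0.35 (adjusted p = 0.269).

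The enzymes of the glycolipids of myelin moved both ways. Of 12 measured 2 rose and 5 fell (58.3% called, against 59.5% of all genes), with a median of -0.10. Fa2h, which adds the hydroxyl group of myelin galactolipids, was at 11.79 and 11.72 at P5 and at 12.41 and 12.45 at P28 (0.68 ± 0.15), and Cers2, which makes ceramides with very long chains, rose by 0.64 ± 0.12. Gal3st1, which makes sulfatide, was at 11.14 and 10.95 and then at 9.67 and 9.73 (-1.35 ± 0.17, adjusted p = 6.91e-06). Ugt8a, which makes galactosylceramide, differed by 0.11 ± 0.13 (adjusted p = 0.479). Sptlc2, of the first step of sphingolipid synthesis, fell by 0.52 ± 0.12, a call lost after quantile normalization, under which 2 members rose and 1 fell.

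Cholesterol is the lipid that limits myelin growth, and Schwann cells make it themselves. Of 17 measured enzymes of its synthesis 11 fell (64.7%) and none was called higher, with a median of -0.59. Of all genes 59.5% were called and 28.2% were lower. Mvk, mevalonate kinase, was at 8.66 and 8.64 at P5 and at 7.80 and 7.80 at P28 (-0.85 ± 0.14, adjusted p = 6.54e-05). Fdps, farnesyl diphosphate synthase, was at 12.32 and 12.32 and then at 11.63 and 11.13 (-0.94 ± 0.22, adjusted p = 0.00154). Dhcr7, of the last step, was at 9.46 and 9.43 and then at 8.89 and 8.84 (-0.58 ± 0.13, adjusted p = 0.00138). In these 3 genes every P28 array was below every P5 array. Fdft1, squalene synthase, fell by 1.18 ± 0.18 in its brightest probe set, but its 4 probe sets ran from -1.18 to 0.65 and their mean was not past the threshold. Hmgcs1, of the first committed steps, was at 13.62 and 13.63 and at 13.85 and 13.87 (0.24 ± 0.12, adjusted p = 0.102). After quantile normalization 8 members fell, with a median of -0.41. Bright genes fell more often than others: of the 2066 with the highest levels 888 fell, with a median of -0.22. After quantile normalization 691 of these fell, with a median of -0.07. CCAAT was in 14 of the 17 promoters of measured members (82.4%) and TCACNCCAC in 1 (5.88%), that of Hmgcs1 printed above, against 34.7% and 1.04% of the promoters of measured genes.

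Among genes that sense, carry or take up sterols 6 of 11 rose and 1 fell (63.6% called, against 59.5% of all genes). Apod, a lipid carrier of nerve fibroblasts and Schwann cells, was at 11.61 and 11.31 at P5 and at 13.87 and 13.87 at P28, a rise of 5.32-fold (2.41 ± 0.14, adjusted p = 1.93e-09). Nr1h3, the oxysterol receptor LXR alpha, was at 5.66 and 5.54 and then at 7.46 and 7.46 (1.86 ± 0.14). Apoe rose by 0.92 ± 0.14, to 12.73 and 12.54 from 11.70 and 11.74. The master regulators rose less: Srebf1 by 0.49 ± 0.15, a call lost without the second P28 array, and Srebf2 by 0.47. Npc2 rose by 0.25, and Abca1, the cholesterol exporter, was the member that fell, by 0.46.

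More genes of fatty acid synthesis rose than fell. Of 18 measured 9 rose, 6 of them more than 2-fold, and 2 fell, with a median of 0.48. That is 61.1% called, near the 59.5% of all genes. Thrsp (Spot 14), a regulator of lipogenesis, was at 5.83 and 6.77 at P5 and at 11.30 and 11.65 at P28, a rise of 36.2-fold (5.18 ± 0.58, adjusted p = 1.86e-06). Me1, the malic enzyme that supplies NADPH, was at 7.68 and 7.69 and then at 10.53 and 10.81 (2.98 ± 0.16, adjusted p = 6.17e-10). Scd1, a desaturase, was at 11.78 and 11.99 and then at 13.80 and 13.89 (1.96 ± 0.20). Each lay far above its P5 range on both P28 arrays. Acacb rose by 1.82 ± 0.33 and Fasn, fatty acid synthase, by 1.40 ± 0.36, while Elovl1 and Acsl4 fell by 0.64 and 0.55. Adipocyte markers rose beside them, as given below, and their part in these rises was not tested.

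The imprinted genes of the fetal growth network fell together. Of 15 measured 11 fell, 10 of them more than 2-fold, and 2 rose (86.7% called, against 59.5% of all genes). The median was -1.41. Dlk1, a Notch-related protein of progenitor cells, was at 11.54 and 11.62 at P5 and at 7.79 and 8.07 at P28, a fall of 12.6-fold (-3.65 ± 0.17, adjusted p = 1.85e-10). Igf2, a growth factor, was at 13.04 and 13.06 and then at 11.56 and 11.34 (-1.60 ± 0.30). Plagl1 (Zac1), a transcription factor of this network, was at 12.67 and 12.79 and then at 11.25 and 11.26 (-1.48 ± 0.11). The ages did not overlap in any of the 3. Ndn, necdin, fell by 1.41 ± 0.16 and Mest by 2.11 ± 0.30. Nnat and Phlda2 rose, Nnat from 7.39 and 7.29 to 9.20 and 9.43 (1.98 ± 0.24) and Phlda2 by 0.86 ± 0.23.

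Matrix genes moved both ways. Of 14 fibrillar and associated collagens 4 rose and 5 fell (64.3% called, against 59.5% of all genes), with a median of 0.05. Col1a1 and Col3a1, the main chains of nerve collagen, differed by 0.00 ± 0.14 and 0.07 ± 0.09 in very bright probe sets (13.53 and 13.94 on the first P5 array), though a second, dimmer probe set of Col1a1 read 4.20 higher. Col11a1, of thin fibrils, was at 9.45 and 9.39 at P5 and at 6.33 and 6.91 at P28, a fall of 6.95-fold (-2.80 ± 0.25, adjusted p = 1.96e-07). Col5a3 rose by 1.27 ± 0.17 while Col5a1 fell by 0.80 ± 0.13, and Col14a1 fell by 0.88 ± 0.10.

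Of 16 genes of collagen processing and elastic fibres 8 rose and 6 fell (87.5% called, against 59.5% of all genes). Their median was 0.35 and turned to -0.15 with the mean of a gene's probe sets. Fbn2, the fibrillin of fetal tissue, was at 9.74 and 9.92 at P5 and at 6.11 and 6.06 at P28, a fall of 13.4-fold (-3.75 ± 0.20, adjusted p = 6.17e-10). Lox, the enzyme that cross-links collagen and elastin, was at 10.75 and 10.66 and then at 12.53 and 12.51 (1.81 ± 0.16). Fbn2 and Lox thus moved in opposite directions, each with close replicates. Mfap5, a microfibril protein, rose by 1.16 ± 0.14, and Thbs2, a matricellular protein, fell by 1.74 ± 0.14. Of 9 small leucine-rich proteoglycans, which order collagen fibrils, 6 rose and 2 fell (88.9% called). Kera, keratocan, was at 7.45 and 7.65 and then at 4.15 and 3.82 (-3.56 ± 0.21), and Aspn, asporin, fell by 1.51. Prelp was at 8.73 and 8.34 and then at 10.29 and 10.47 (1.85 ± 0.16), Omd rose by 1.33 ± 0.16, and Dcn, decorin, rose by 0.66 ± 0.10 to 14.02 and 14.02.

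Of 23 genes of the basal lamina and its receptors 6 rose and 6 fell (52.2% called, against 59.5% of all genes). The sign of their median, 0.11, changed with the processing. Itgb4, the laminin receptor subunit that Schwann cells gain as they myelinate, was at 8.05 and 7.89 at P5 and at 10.28 and 10.51 at P28, a rise of 5.36-fold (2.42 ± 0.22, adjusted p = 1.87e-07). Col15a1 was at 9.63 and 9.63 and then at 11.63 and 12.03 (2.20 ± 0.17). The laminin beta chains moved in opposite directions: Lamb1 was at 12.57 and 12.62 and then at 11.21 and 11.59 (-1.19 ± 0.19), and Lamb2 at 8.60 and 8.48 and then at 9.61 and 9.73 (1.13 ± 0.15). Nid2, nidogen 2, fell by 1.17 ± 0.17, while Nid1 differed by 0.17 and was not called.

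Of 15 genes of nodes, paranodes and channels 4 rose and 6 fell (66.7% called, against 59.5% of all genes). Kcnj10, the glial potassium channel Kir4.1, was at 10.34 and 10.42 at P5 and at 6.50 and 6.30 at P28, a fall of 15.8-fold (-3.98 ± 0.22, adjusted p = 7.86e-10). Cntn1, contactin, was at 9.22 and 9.36 and then at 6.92 and 7.13 (-2.26 ± 0.20). Both were far lower on each P28 array. Atp1b2, a glial subunit of the sodium pump, was at 7.12 and 7.37 and then at 9.49 and 9.50 (2.25 ± 0.13), and Cadm3 (Necl-1), an adhesion molecule of the internode, rose by 1.51 ± 0.13. Cntnap1 (Caspr), of the paranodal axon, and Cntn2, of the juxtaparanode, rose by 0.37 and 0.47. Of 13 transcripts known from axons and neurons 6 were called, all higher (46.2%, against 59.5% of all genes), with a median of 0.47. After quantile normalization 4 were called higher and 1 lower, with a median of 0.30, and as reported the neurofilament genes Nefl and Nefm differed by 0.08 and -0.14 and were not called. Sncg, a synuclein, was at 10.55 and 10.46 and then at 11.58 and 11.61 (1.09 ± 0.12), and Stmn3 rose by 1.27 ± 0.19. Stmn2 rose by 1.08 ± 0.21 in its brighter probe set, a call lost with the mean of its 2 probe sets.

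**Figure D4:**
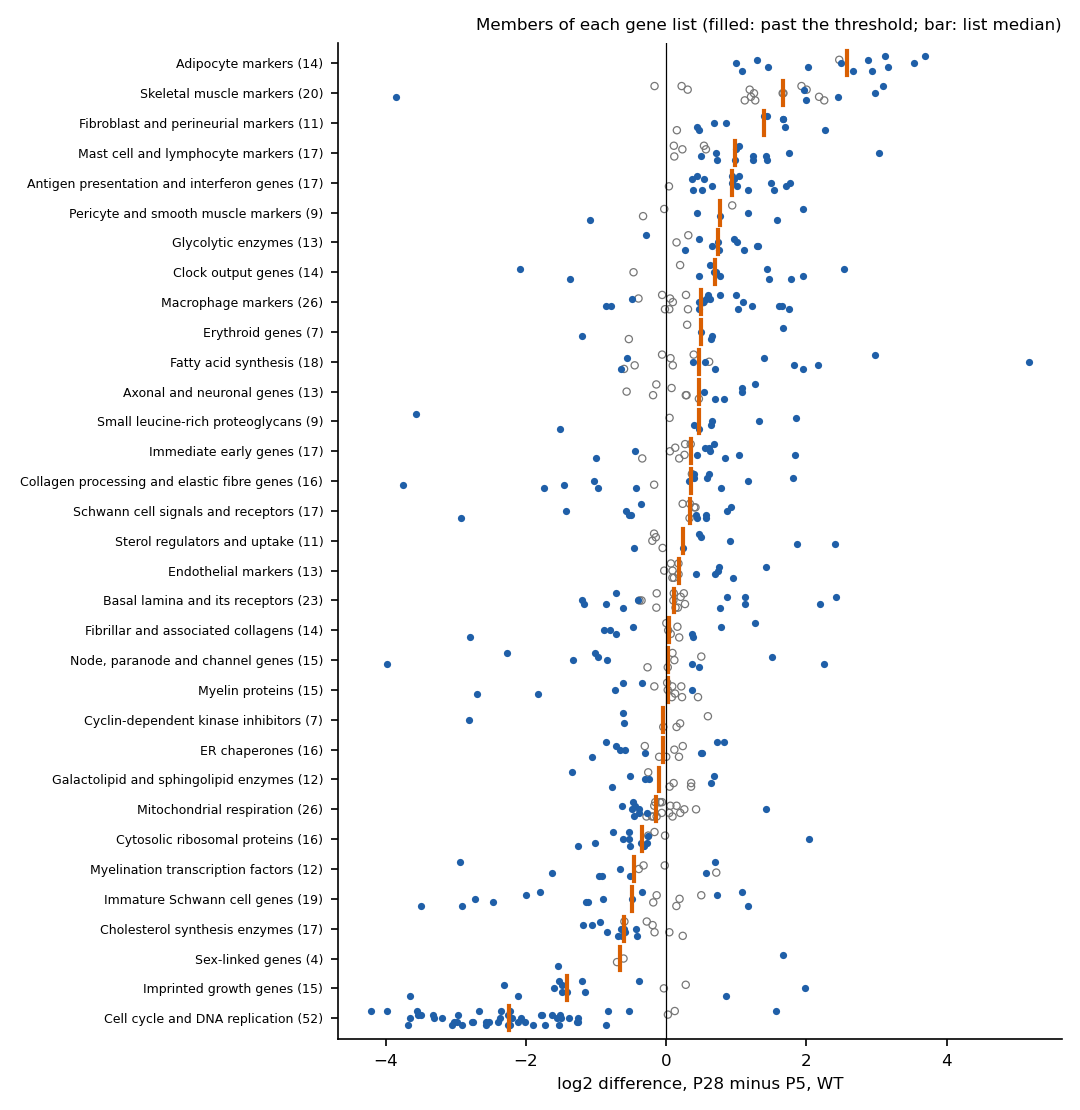
Log2 difference between P28 and P5 in WT nerve (horizontal axis) for the measured members of 33 gene lists, with the number measured in brackets, filled points past the threshold and a bar at each list's median. Medians run from -2.25 for cell cycle genes to 2.58 for adipocyte markers, against 0.08 for all genes.

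Markers of fat tissue rose most as a group. Of 14 adipocyte markers 13 rose, 12 of them more than 2-fold, with a median of 2.58, and their mean level was 7.91 and 8.30 on the P5 arrays and 10.32 and 10.71 on the P28 arrays. Cidec, a lipid droplet protein, was at 4.94 and 5.65 at P5 and at 8.92 and 9.04 at P28, a rise of 12.9-fold (3.69 ± 0.30, adjusted p = 5.49e-08). Retn, resistin, was at 7.13 and 7.62 and then at 10.81 and 11.00 (3.53 ± 0.35), and Plin4, perilipin 4, at 6.97 and 7.58 and then at 10.34 and 10.45 (3.12 ± 0.30). The second P5 array was the higher of the 2 in each, and both lay far below the P28 arrays. Cebpa, a transcription factor of adipocytes, rose by 2.88 ± 0.24. Ucp1, of brown fat, was at 5.84 and 8.53 on the P28 arrays and was not called (2.47 ± 1.56, adjusted p = 0.181).

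Markers of fibroblasts and perineurial cells rose in 10 of 11 cases, 6 of them by more than 2-fold, with a median of 1.40. Thy1 was at 6.52 and 6.42 at P5 and at 8.66 and 8.82 at P28 (2.27 ± 0.24, adjusted p = 1.26e-06). Pi16, of adventitial fibroblasts, was at 8.69 and 8.30 and then at 10.18 and 10.19 (1.69 ± 0.19). Slc2a1, the glucose transporter of the perineurial barrier, was at 9.75 and 9.65 and then at 10.91 and 11.28 (1.40 ± 0.15), in nerves whose sheath had been removed by the labels' account. Every P28 array lay above every P5 array in the 3. Pdgfra was the member not called, at 0.15.

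Vessel markers rose less. Of 13 endothelial markers 6 rose and none was called lower (46.2% called, against 59.5% of all genes), and the median was 0.18. Plvap, of fenestrated endothelium, was at 7.92 and 7.98 at P5 and at 9.22 and 9.52 at P28 (1.42 ± 0.19), and Flt1 and Kdr, receptors of VEGF, rose by 0.95 ± 0.15 and 0.69 ± 0.15. Pecam1 and Cdh5, markers of all endothelium, differed by 0.09 and 0.11 and were not called. Of 9 pericyte and smooth muscle markers 5 rose and 1 fell (66.7% called). Tagln and Myh11, of contractile smooth muscle, rose by 1.95 ± 0.18 and 1.58 ± 0.34, and Abcc9, a channel subunit of pericytes, fell by 1.09 ± 0.26.

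Immune transcripts rose unevenly. Of 17 genes of antigen presentation and the interferon response 16 rose, with a median of 0.94. Ifit3, an interferon target, was at 5.61 and 6.03 at P5 and at 7.48 and 7.56 at P28 (1.71 ± 0.16, adjusted p = 2.79e-07). H2-D1, a class I heavy chain, was at 11.18 and 11.11 and then at 12.15 and 12.15 (1.01 ± 0.13), and H2-DMa, of class II loading, rose by 1.49 ± 0.19. Of 26 macrophage markers 14 rose and 3 fell (65.4% called, against 59.5% of all genes), with a median of 0.50. Folr2, of resident macrophages, was at 7.81 and 7.74 and then at 9.58 and 9.48 (1.76 ± 0.21), Cd163 rose by 1.61 ± 0.30 and Lyz2 by 1.22 ± 0.18. The 3 that fell were Cx3cr1, at -0.86, Aif1, at -0.78, and Fcgr1, at -0.48, while Adgre1 (F4/80) and Ptprc (CD45) differed by 0.05 and 0.28 and were not called. Of 17 mast cell and lymphocyte markers 12 rose (70.6% called, against 59.5% of all genes), with a median of 0.98. Mcpt4, a mast cell protease, was at 5.94 and 5.62 and then at 8.87 and 8.77, a rise of 8.20-fold (3.03 ± 0.25), and Cpa3, another, rose by 1.75 ± 0.28.

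Skeletal muscle transcripts varied widely between the P5 replicates. Their mean level over 20 genes was 8.03 and 9.82 on the P5 arrays and 10.54 and 9.98 on the P28 arrays, so the list had a median of 1.67 with only 5 genes called higher and 1 lower. The share called was 30.0%, against 59.5% of all genes. Pvalb, parvalbumin, was at 8.24 and 10.38 at P5 and at 12.60 and 12.21 at P28 (3.10 ± 1.18, adjusted p = 0.0327), a call lost under 5 alternatives. Mb, myoglobin, and Casq1, calsequestrin, rose by 2.46 ± 0.76 and 1.96 ± 0.64, and both calls were lost without the first P5 or the first P28 array. Tcap and Atp2a1 rose by 1.99 and 2.98. Myh8, the perinatal myosin, went against the others, from 7.76 and 9.78 to 4.79 and 5.03 (-3.85 ± 0.67, adjusted p = 0.000146), and Atp1b4, which is known from perinatal muscle, from 5.89 and 8.53 to 3.48 and 3.50. At P5 the second array was also the higher one for Myh8 in Chop null nerve (7.68 and 9.58) and S63del nerve (7.68 and 9.36), and the first in nerve with both changes (9.53 and 7.76). Erythroid genes were dim: 4 of 7 rose and 1 fell, Hba-a2 was at 4.61 and 4.74 and then at 6.45 and 6.23, and 1 of the 7 rose after quantile normalization.

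Clock genes rose in their output arm. Of 14 measured 10 rose and 2 fell (85.7% called, against 59.5% of all genes), with a median of 0.70. Nr1d1, the repressor REV-ERB alpha, was at 6.34 and 6.49 at P5 and at 8.88 and 9.02 at P28, a rise of 5.79-fold (2.53 ± 0.24, adjusted p = 3.79e-07). Hlf, an output factor, was at 5.54 and 5.38 and then at 7.26 and 7.56 (1.95 ± 0.17), and Tef rose by 1.43 ± 0.16. Cry1 and Arntl (Bmal1) fell, Cry1 from 6.84 and 7.19 to 5.03 and 4.83 (-2.09 ± 0.21) and Arntl by 1.36 ± 0.52. The labels give no time of day, so hour of dissection and age cannot be told apart. Of 17 immediate early genes 8 rose and 2 fell (58.8% called, against 59.5% of all genes). Zfp36, which destabilises messenger RNA, rose by 1.84 ± 0.12 to 8.73 and 8.70, while Fos was at 8.86 and 9.01 and then at 7.64 and 8.22 (adjusted p = 0.000569).

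Housekeeping groups differed in how far they shifted. Of 13 glycolytic enzymes 10 rose and 1, Pgam1, fell (84.6% called, against 59.5% of all genes), with a median of 0.75. Aldoa was at 11.67 and 11.95 at P5 and at 13.02 and 12.81 at P28 (1.11 ± 0.14), and Hk1, the brain-type hexokinase, rose by 1.01 ± 0.14; Aldoa is abundant in muscle, whose markers varied as given above, and the part of muscle in it was not tested. Of 26 genes of mitochondrial respiration 8 fell and 1 rose (34.6% called, against 59.5% of all genes), with a median of -0.14. The riser was Cox7a1, a subunit of heart and muscle, at 1.43 ± 0.28. After quantile normalization 3 of the 26 were called higher and 4 lower, with a median of -0.07. Of 16 cytosolic ribosomal protein genes 12 fell and 1 rose (81.2% called), with a median of -0.34. Of all genes 28.2% were lower, and of the 2066 with the highest levels 888 were, with a median of -0.22. After quantile normalization 9 of the 16 fell and 1 rose, with a median of -0.29. Rpl8 was at 12.61 and 12.63 and then at 11.61 and 11.61 (-1.01 ± 0.09). The riser was Rpl27a, at 6.76 and 7.53 and then at 9.21 and 9.15 (2.03 ± 0.25), beside an 18S control that moved in the same direction; the part of the latter was not tested. Of 16 ER chaperones 4 rose and 6 fell (62.5% called). Manf was at 11.29 and 11.03 and then at 10.06 and 10.15 (-1.05 ± 0.19), and Herpud1 rose by 0.50 ± 0.12. Canx, calnexin, rose by 0.52 ± 0.12, but its 3 probe sets ran from -0.63 to 0.52. Ddit3 itself was at 7.66 and 7.62 and then at 8.20 and 8.16 (0.54 ± 0.19, adjusted p = 0.0248), a call lost under 5 alternatives.

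The replicates differed in genes of the sex chromosomes. Xist, expressed in females, was at 10.31 and 8.37 on the P5 arrays and at 11.00 and 11.02 on the P28 arrays, and Eif2s3y, on the Y chromosome, at 7.67 and 8.56 and then at 6.31 and 6.84. Xist was thus lowest, and Eif2s3y highest, on the second P5 array, and both calls were lost without it. The part of sex in other differences was not tested.

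The largest rises and falls lay partly outside these groups. Cyp2e1, a cytochrome P450 of fat and liver, was at 4.22 and 4.19 at P5 and at 11.82 and 11.68 at P28, a log2 difference of 7.55 ± 0.14 (adjusted p = 4.04e-16). Its P5 values are near the low end of the scale and were not checked against background, so no fold is given. Inmt, an indole methyltransferase, was at 4.78 and 5.26 and then at 9.87 and 10.01 (4.92 ± 0.24), and Aldh1a1, which makes retinoic acid, at 6.17 and 5.85 and then at 10.34 and 10.62 (4.47 ± 0.23). A lack of overlap between ages was a condition for a place among the largest rises and falls, so it was fixed in advance. Gpm6a, a membrane glycoprotein of neurons, was at 6.54 and 6.46 and then at 10.68 and 10.80 (4.24 ± 0.19). Serpina3n, a protease inhibitor, was at 6.34 and 6.37 and then at 10.28 and 10.30 (3.94 ± 0.26), and Mt3, a metallothionein, at 8.38 and 8.38 and then at 12.30 and 12.28 (3.91 ± 0.13). The largest rises also held the plasma protein Hp, haptoglobin (4.05 ± 0.39), the carboxylesterase Ces1d (3.94 ± 0.41), the dipeptidase Dpep1 (3.76 ± 0.17), the fibrinogen-like protein Fgl2 (3.70 ± 0.21), Cyp4f14 (4.02 ± 0.18), Tmem45b (3.87 ± 0.33) and Retnla (3.77 ± 0.49).

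Among the falls, Agtr2, the type 2 receptor of angiotensin, which is known from fetal and newborn tissue, came first: it was at 10.23 and 10.21 at P5 and at 4.45 and 4.76 at P28, a log2 difference of -5.61 ± 0.26 (adjusted p = 1.85e-10), with P28 values that were likewise not checked against background. Nrk, a kinase of embryonic tissue, was at 10.95 and 11.18 and then at 6.63 and 6.62 (-4.44 ± 0.16, adjusted p = 9.5e-12), with 3 probe sets between -5.34 and -1.18. Bex1 was at 7.58 and 7.80 and then at 3.35 and 3.98 (-4.03 ± 0.46). For Agtr2 and Nrk the replicates of an age lay close together.

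Chop null nerve gave the same comparison on 4 other arrays, 2 at each age, which stood apart at P28 in the same way. Ddit3 read 6.85 and 6.60 at P5 and 6.84 and 7.37 at P28 there, below each WT array of its age; where its probe set lies relative to the deletion was not determined. In Chop null nerve 8483 genes were called (68.4%), 4683 higher (37.8%) and 3800 lower (30.7%). Of the 7378 genes called in WT, 6744 were called in the same direction there (91.4% of the WT calls and 79.5% of the Chop null calls) and 1 in the opposite direction. Of the 2045 WT genes past 2-fold it was 2025 (99.0%). The 2 Chop null P28 arrays differed from each other more than the replicates of any other group (SD 0.394 over genes, against 0.123 to 0.227). With array weights, 4002 genes were called higher and 3629 lower in WT. Only 4887 were then called the same way in Chop null nerve, so the share depends on the fit. Both sets share the estimate of spread, and the P28 arrays of both stood apart in the dap control and in the range of their values. At P5 the difference between the first and second array correlated between WT and Chop null nerve (r = 0.35 across 12393 genes, which are not independent), so the 2 sets were not shown to be separate repeats. A test of the difference between the 2 changes called 0 genes (limma; 542 had an unadjusted p under 0.05). Among members, Agtr2 changed by -5.93 in Chop null nerve, Cyp2e1 by 7.31, Sox2 by -4.04, Pou3f1 by -3.26 and Mki67 by -4.08, and 49 of the 52 cell cycle genes fell there too.

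**Figure D5:**
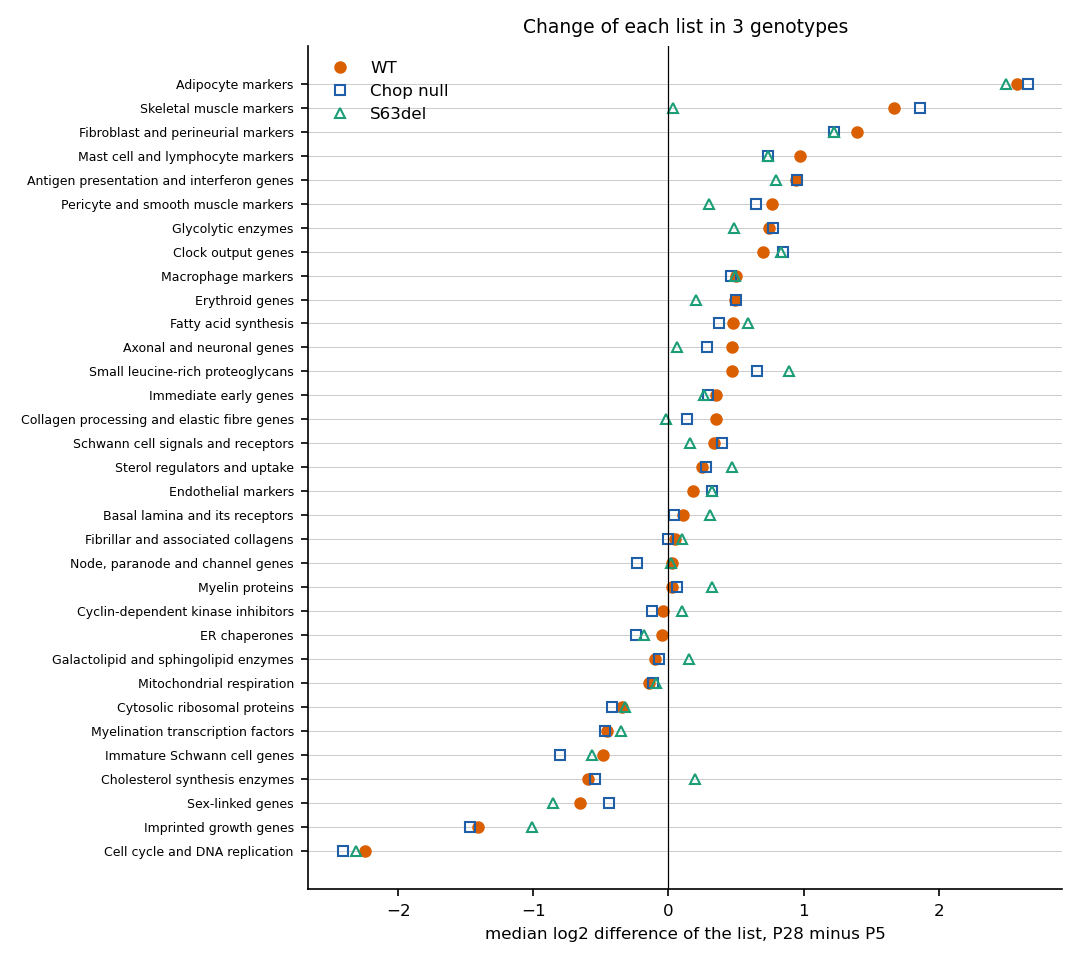
Median log2 difference between P28 and P5 (horizontal axis) of each gene list in WT, Chop null and S63del nerve. The medians of cell cycle genes lie at -2.25, -2.41 and -2.32, and those of cholesterol synthesis enzymes at -0.59 in WT, -0.54 in Chop null and 0.20 in S63del nerve.

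In S63del nerve 6608 genes were called between P5 and P28 (53.3%), 3647 higher (29.4%) and 2961 lower (23.9%). The difference of its change from that of WT was called for 59 genes (0.476%), a count that was 213 without the second Chop null P28 array and the first WT 4-month array, 134 with array weights, and 23 to 45 without single WT arrays. Of 17 cholesterol synthesis enzymes 11 fell in WT and 1 in S63del nerve, but the test of the difference called 1 of them, Hmgcs1, which was at 12.55 and 12.46 at P5 in S63del nerve and at 13.60 and 13.58 at P28, a rise of 1.08 against 0.24 in WT (difference 0.84 ± 0.17, adjusted p = 0.0332). Me1 rose by 1.62 in S63del nerve against 2.98 in WT (difference -1.36 ± 0.23, adjusted p = 0.00784). Gfap and Tubb3, named after their values were seen, also differed, Gfap by 1.72 ± 0.31 (adjusted p = 0.0142) and Tubb3 by -1.86 ± 0.29 (adjusted p = 0.00554).

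WT nerve at 4 months shows where these genes stood later. The comparisons of 4 months with P28 and with P5 share arrays with that of P28 with P5, so their values are only set side by side, and the first 4-month array had a Gapdh probe set from the 3′ end 2.12 above that from the 5′ end. Between P28 and 4 months 57.0% of genes were called, 31.5% higher and 25.5% lower, and between P5 and 4 months 36.8%, 21.3% higher and 15.5% lower. Of 52 cell cycle genes 51 were lower at 4 months than at P5 and none was called higher (limma), with a median of -2.50, and against P28 14 were higher and 19 lower, with a median of -0.18. Mki67 stood at 6.14 and 5.54 at 4 months and Rrm2 at 5.50 and 5.24, close to their P28 levels. Agtr2 was at 4.42 and 4.03.

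Sox2 was at 7.71 and 7.82 at 4 months and Pou3f1 at 8.95 and 9.07, in both cases between the levels at P5 and P28. Egr2, at 11.11 and 11.27, lay between its levels at the other ages too. A gene that is low on the P28 arrays enters both comparisons with that low value, so nothing particular to these genes can be read from their higher levels at 4 months. Of 15 myelin protein genes 8 were lower and 2 higher than at P28, and of 17 cholesterol synthesis enzymes 13 were lower and 1 higher, with a median of -0.70. Fdps was at 10.30 and 10.65, below both earlier ages, and Hmgcs1 at 13.11 and 13.14. Mag was at 8.64 and 9.76, with the 2 arrays far apart. Of 14 fibrillar collagens 13 were lower than at P28, with a median of -0.76: Col1a1 was at 12.21 and 12.36 (-1.25 against P28).

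The imprinted genes stood lower still in part. Dlk1 was at 6.27 and 6.14 at 4 months and Igf2 at 9.19 and 9.62, each below its P28 range. Cyp2e1 was at 12.98 and 12.67, above P28, and Aldh1a1 at 11.84 and 11.89. The mean level of the 14 adipocyte markers was 10.84 and 10.54, near that of P28, and that of the 20 skeletal muscle genes was 6.36 and 6.89, below both P5 and P28 and with less difference between the 2 arrays than at P5. Slc2a1 was at 12.25 and 12.19, above both earlier ages.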

How the data were processed

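Total RNA of sciatic nerve was labelled as biotinylated cRNA and hybridised to Affymetrix arrays, per the labels. The authors deposited log2 values per probe set; which normalization and software they used was not stated there. Arrays were mapped to groups by their titles. The table held 22690 probe sets, 64 of them controls; 20380 had 1 gene symbol in the platform annotation, 691 several and 1555 none. Each of 12393 genes was read from its brightest probe set.

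A model of the 12 group means was fitted to all 24 arrays by limma 3.58.1 (lmFit, eBayes; R 4.3.3), which leaves 12 residual degrees of freedom, and p-values were adjusted by Benjamini-Hochberg over all genes with a threshold of 0.05; the script was tested on simulated data. All adjusted p-values come from limma. A rule of 2-fold was added after the data were seen. Members and the 33 lists (587 genes, 525 measured) were chosen with earlier results of these data known. Named genes were the 15 largest rises and falls without overlap between ages, the 4 list members of smallest p in every list, and a set of nerve genes; other genes were named after their values were seen. Some genes are not reported here. Alternatives were quantile normalization, centring on the median, the mean of all probe sets, probe sets one by one, no dim genes (the dimmest 40% left out), fewer arrays, array weights, trend and robust fits, a replicate block, and each WT array left out. Figures were drawn with matplotlib 3.10.9 in Python 3.11.15. The number of arrays, 2 in each group, limits the precision.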

Additional observations from a re-analysis of the deposited data

Results flagged for a closer look

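For 7 of the named genes the change from P5 to P28 differed between S63del and WT nerve by a test of the difference itself (limma, Benjamini-Hochberg over all genes, 2 arrays in each of the 4 groups). The differences are S63del minus WT on the log2 scale. Hmgcs1, of cholesterol synthesis, differed by 0.84 ± 0.17 (adjusted p = 0.0332), with changes of 1.08 and 0.24. Me1, the malic enzyme, differed by -1.36 ± 0.23 (adjusted p = 0.00784), with 1.62 and 2.98. Nrk, the kinase, differed by 1.08 ± 0.23 (adjusted p = 0.0436), with -3.36 and -4.44. Gpnmb, of lipid-laden macrophages, differed by -1.63 ± 0.30 (adjusted p = 0.0152), with 0.03 and 1.66. Cyp4f14, a cytochrome P450, differed by -1.31 ± 0.25 (adjusted p = 0.0197), with 2.71 and 4.02. Hba-a2, a globin, differed by -2.29 ± 0.26 (adjusted p = 0.000267), with -0.63 and 1.66. Rpl27a, a ribosomal protein gene, differed by -3.28 ± 0.35 (adjusted p = 0.000252), with -1.25 and 2.03. The 18S control was 9.65 and 9.43 on the WT P28 arrays and 6.19 and 6.71 on the S63del P28 arrays. Hba-a2 likewise was at 6.45 and 6.23 on the former and at 4.10 and 4.30 on the latter. The part of the 18S control in the results of these 7 genes was not tested.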

How the results depend on the processing

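Of the 7378 genes called, 5476 were called in the same direction after quantile normalization. Of 159 called named genes, which were chosen for large differences or small p, 135 stayed past the threshold under every alternative run, 23 lost it under at least 1, and 2 turned sign with the mean of all probe sets, Canx to -0.083 and Xist to -0.11. Taking probe sets one by one gave 6349 higher and 6510 lower, 1625 and 2322 of them over 2-fold, because more features were tested. Without the dimmest genes 1650 were higher, 562 over 2-fold higher, 4414 WT calls were called the same way in Chop null nerve, and 4585 genes differed between 4 months and P28 (7062 in the fit reported). Quantile normalization gave 3048 higher and 3170 lower, and centring on the median 4706 and 3006. A fit of the 6 WT arrays alone gave 3665 higher and 3219 lower. The S63del and WT changes differed for 213 genes without the second Chop null P28 and first WT 4-month arrays, for 134 with array weights, and for 59 as reported. Leaving out 1 WT array of P5 or P28 gave 2955 to 3336 higher, 2726 to 3324 lower, 964 to 1209 and 892 to 1272 over 2-fold, 294 to 308 called list members (359 as reported), 5319 to 6199 shared with Chop null nerve, 23 to 45 that differed from S63del nerve, and 4859 to 6918 between 4 months and P28. The lone array left in a group is then assumed to vary like the others. With the replicate number as a block 3819 were higher and 3476 lower; the replicate differences of WT P5 and WT P28 correlated at r = -0.07 across 12393 genes, so pairing between these 2 groups was not shown. Between genotypes of 1 age r was -0.25 to 0.35 at P5, -0.32 to 0.21 at P28 and -0.48 to 0.10 at 4 months, highest between WT and Chop null nerve at P5.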
